A study of Homo sapiens with 4 samples.

Results

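The genes described are 10 targets and components of the NF-kB pathway, of 58884 genes in each count table: the feedback genes NFKBIA, TNFAIP3 and BIRC3, the subunit genes NFKB1, NFKB2 and RELB, the chemokine genes CXCL1, CXCL2 and CXCL8, and the adhesion gene ICAM1. They were listed by name, with earlier results of these data known, and all 10 symbols were matched to a gene ID through GENCODE release 44. RNA sequencing was done on HCT116, a human colorectal carcinoma cell line, with 2 RALY knockdown libraries and 2 control libraries. RALY is an hnRNP family RNA-binding protein. Per the labels, cells were exposed for 72 h, with polyprene, to lentivirus delivering a short hairpin RNA directed at RALY or a nonsilencing one. The control libraries are titled WT and called untreated elsewhere in the labels, so whether they received the nonsilencing virus cannot be told from the labels. The number of hairpins is not stated in the labels, so an effect of RALY loss and an effect of a single hairpin cannot be told apart. The labels do not state that replicate libraries were grown as separate cultures. The p-values then reflect the spread among these 4 libraries, which may be technical.

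NF-kB transcription factors are dimers that wait in the cytoplasm, held by inhibitor proteins of the IkB family. Signals from receptors for tumour necrosis factor, interleukin 1 and microbial products activate the IkB kinase, the inhibitor is degraded, and the dimer enters the nucleus. Among its direct targets are genes for its own inhibitors, which end the response, and chemokine genes, whose products draw neutrophils. In colorectal tumour cells the chemokines of this group are a known part of the signalling between tumour and myeloid cells.

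RALY itself had 634 and 522 reads in the knockdown libraries and 1903 and 2132 in the controls (log2 fold change -1.84, edgeR adjusted p = 6.59e-06). Libraries held from 13360007 to 16847520 counts, so that 3 counts correspond to between 0.174 and 0.227 CPM, the count scaled to library size. Of 10 colorectal epithelial markers, 8 had a mean above 3 counts, EPCAM and KRT8 among them, while CDX1 and CEACAM5 were near 0. KRT20 and VIL1, also among the 8, were barely detected, with at most 16 reads in a library. Their summed level was 630 to 671 CPM in the knockdown and 600 to 695 CPM in the controls, and CDX2 alone of the 8 tested was called, as lower. Of 9 leukocyte markers the summed level was 35.9 to 36.3 CPM in the knockdown and 35.1 to 38.0 CPM in the controls, most of it from CD68. The defining leukocyte genes PTPRC, CD3E and MS4A1 had at most 9 reads in a library. ITGAM was the called leukocyte marker, with 97 and 68 reads in the knockdown and 32 and 36 in the controls. Fibroblast markers summed to 103 to 132 CPM in the knockdown and 127 to 148 CPM in the controls, mostly from COL1A1 and PDGFRB with none of the tested ones called, and endothelial markers to at most 10.6 CPM in any library. In bulk RNA, a change in the number of expressing cells and a change in RNA per cell cannot be told apart.

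After RALY knockdown, the feedback genes TNFAIP3, BIRC3 and NFKBIA and the chemokine genes CXCL8 and CXCL1 were higher, while none of the subunit genes passed the test. TNFAIP3 rose 2.16-fold, BIRC3 1.97-fold, NFKBIA 1.48-fold, CXCL8 2.60-fold and CXCL1 2.37-fold. Of the 10 genes, 5 were called higher and 0 lower by the edgeR quasi-likelihood test (Benjamini-Hochberg adjusted p under 0.05), where 12.5% of the 19686 genes tested were called higher and 13.1% lower (25.6% in either direction). Against a minimum fold of 1.2, 4 of the 10 were called higher, where 7.52% of all genes were. Unadjusted, the quasi-likelihood test gave 2 of the 10, NFKB1 and RELB, a p under 0.05 towards lower levels, and DESeq2 called 0 lower. The median log2 fold change was 0.74 over the 10 genes and 0.01 over all genes tested. Because the genes were listed with results known, these shares and medians are a description. In 7 of the 10 genes both knockdown libraries lay above both controls, and in 2 both lay below, against 32.3% and 31.3% of all genes tested. All 10 passed the filter on low counts. Leaving out control replicate 1 left 1 of the 10 called higher, and 340 over all genes. Leaving out control replicate 2 left 3 of the 10, and 476 over all genes. The fit without knockdown replicate 1 called more genes in both directions over all genes. Among the 10 it also called CXCL2 higher, and NFKB1 and RELB lower (log2 fold change 1.16, -0.46 and -0.51).

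**Figure D1:**
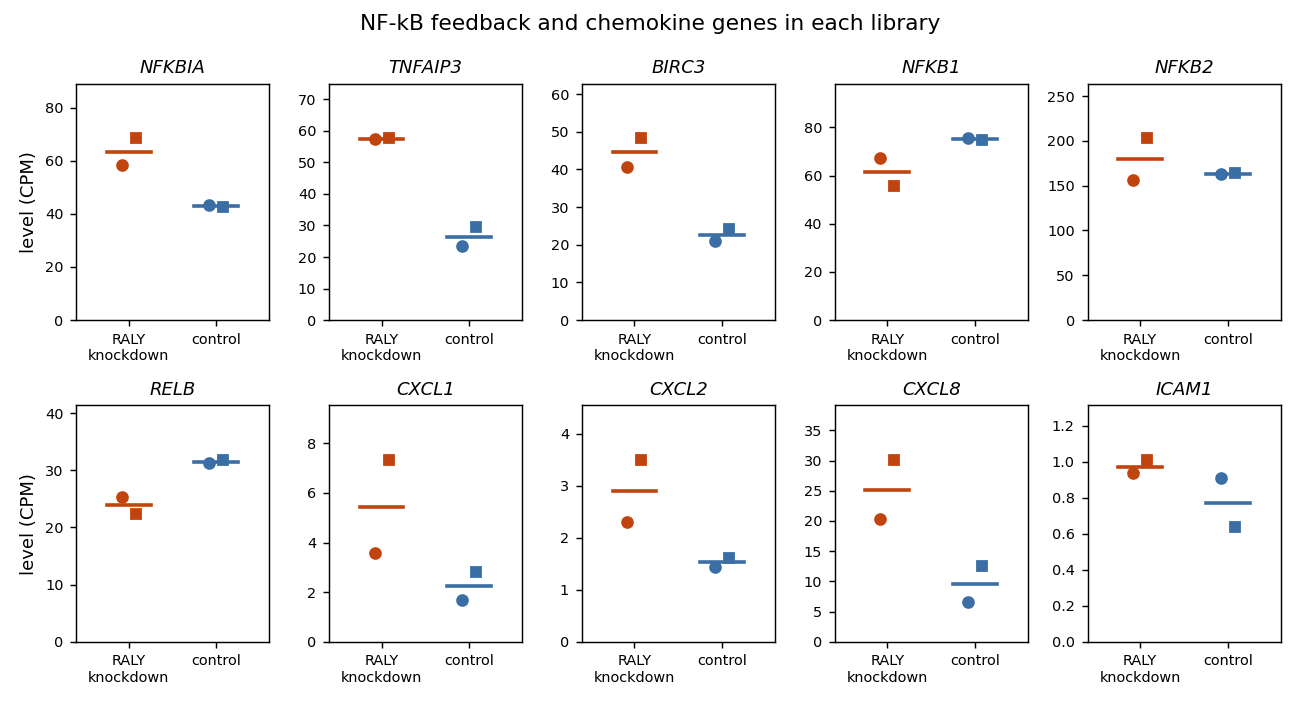
Level of each of the 10 genes in CPM, with its own axis from 0 for each gene, in the RALY knockdown (left) and control (right) libraries. Circles are replicate 1, squares replicate 2 and bars the mean of 2 libraries. The knockdown libraries lie above both controls in 7 genes, below both in NFKB1 and RELB, and on either side of the controls in NFKB2.

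TNFAIP3 encodes a ubiquitin-editing enzyme that switches off signalling upstream of the IkB kinase. The gene (ENSG00000118503, chromosome 6, positions 137867214 to 137883312, GRCh38) had 920 and 858 reads in the knockdown libraries and 310 and 510 in the controls. Its level was 57.4 and 57.7 CPM in the knockdown and 23.5 and 29.5 CPM in the controls. The lower knockdown library was 1.95 times the higher control, so the gap between groups was wider than the spread within either. The log2 fold change was 1.11 (SE 0.146, edgeR adjusted p = 0.000312), the smallest p of the 10 genes and rank 317 of all genes tested. An antisense gene, WAKMAR2, shares 1.89% of its exon bases.

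BIRC3 encodes a ubiquitin ligase of the inhibitor of apoptosis family that acts at the tumour necrosis factor receptor and in turnover of the kinase NIK. It lies on chromosome 11 (ENSG00000023445, positions 102317450 to 102339403, GRCh38) beside its relative BIRC2. BIRC3 had 40.7 and 48.3 CPM in the knockdown and 21.0 and 24.1 CPM in the controls, again with no overlap between groups. The log2 fold change was 0.98 (SE 0.155, edgeR adjusted p = 0.000935), and without control replicate 1 the gene was not called (log2 fold change 0.85, edgeR adjusted p = 0.0589). BIRC2, which encodes the paralogous ligase, had 103 and 117 CPM in the knockdown and 88.4 and 93.4 CPM in the controls (log2 fold change 0.27, edgeR adjusted p = 0.0965), and it was called higher without knockdown replicate 1 (edgeR adjusted p = 0.033). Of the 50-base stretches of the BIRC3 canonical transcript, 0.161% also occur in BIRC2, so few reads could be shared.

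NFKBIA encodes IkB alpha, the inhibitor that binds NF-kB dimers and is itself a rapid target of them. The gene (ENSG00000100906, chromosome 14, positions 35401511 to 35404749, GRCh38) had 936 and 1019 reads in the knockdown libraries and 571 and 734 in the controls. On the CPM scale these are 58.4 and 68.5 in the knockdown and 43.3 and 42.5 in the controls. Both knockdown libraries were above both controls, and the 2 controls differed by less than the 2 knockdown libraries. The log2 fold change was 0.57 (SE 0.129, edgeR adjusted p = 0.00777). The call was lost without control replicate 1 (edgeR adjusted p = 0.118) or control replicate 2 (edgeR adjusted p = 0.123), with a log2 fold change of 0.54 in both.

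The promoters of these 3 feedback genes are shown because the kB consensus, the sequence that NF-kB dimers bind, could be located in each of them. Sequences are from RefSeq (GRCh38.p14) and run 5' to 3' along the gene, from 250 bases before its start to 50 after it. Capitals mark matches to the kB consensus of 10 bases, searched on both strands; matches can overlap. TNFAIP3 is chr6:137867009-137867308 on the plus strand, BIRC3 is chr11:102317234-102317533 on the plus strand and NFKBIA is chr14:35404700-35404999 on the minus strand.
TNFAIP3: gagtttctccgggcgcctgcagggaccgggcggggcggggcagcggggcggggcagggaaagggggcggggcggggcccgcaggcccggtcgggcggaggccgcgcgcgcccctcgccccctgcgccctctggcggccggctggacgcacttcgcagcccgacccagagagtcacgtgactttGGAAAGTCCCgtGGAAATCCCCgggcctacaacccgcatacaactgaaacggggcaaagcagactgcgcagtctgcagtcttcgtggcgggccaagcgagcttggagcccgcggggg
BIRC3: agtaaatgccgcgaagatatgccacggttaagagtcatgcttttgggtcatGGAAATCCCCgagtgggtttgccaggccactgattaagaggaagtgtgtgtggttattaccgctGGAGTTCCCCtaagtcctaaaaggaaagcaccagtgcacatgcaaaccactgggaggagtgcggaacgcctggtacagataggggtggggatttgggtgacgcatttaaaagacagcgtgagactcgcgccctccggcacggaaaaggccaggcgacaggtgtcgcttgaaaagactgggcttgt
NFKBIA: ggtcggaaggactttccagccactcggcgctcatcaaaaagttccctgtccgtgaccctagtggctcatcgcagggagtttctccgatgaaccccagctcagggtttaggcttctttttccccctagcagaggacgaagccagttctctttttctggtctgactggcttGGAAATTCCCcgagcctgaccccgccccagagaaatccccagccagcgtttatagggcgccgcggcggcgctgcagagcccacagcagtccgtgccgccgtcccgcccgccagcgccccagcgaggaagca

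Counted from the start, TNFAIP3 carried 2 matches, with first bases at -67 and -55. BIRC3 also carried 2, at -199 and -135, and NFKBIA carried 1, at -81. All 5 read as the consensus on the strand opposite to the gene. The consensus occurs in 11.3% of the 35114 windows of that length in the table, and in 8 of the 12 windows of the 9 of these 10 genes that the table holds, which belong to 7 genes. RELB was not matched in it. With the first base of the consensus left free, 11 of the 12 windows and 32.0% of all windows hold a match. A match describes the letters in the window and is not a measurement of binding, and nothing here was measured at these sites.

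Of the subunit genes, NFKB2 encodes the precursor from which the DNA-binding subunit of the noncanonical pathway is made, and RELB encodes its usual partner. NFKB2 (ENSG00000077150, chromosome 10, positions 102394110 to 102402524, GRCh38) had 156 and 203 CPM in the knockdown and 163 and 164 CPM in the controls. The 2 controls lay between the 2 knockdown libraries, so the groups overlapped. The log2 fold change was 0.13 (95% interval -0.16 to 0.43, edgeR adjusted p = 0.507), an interval that runs from 0.896 to 1.35 times the control level. Without knockdown replicate 2 its sign turned (log2 fold change -0.07). RELB (ENSG00000104856, chromosome 19, positions 45001449 to 45038198, GRCh38) had 25.4 and 22.4 CPM in the knockdown and 31.2 and 31.8 CPM in the controls. Both knockdown libraries lay below both controls, with a log2 fold change of -0.40 (SE 0.155, edgeR adjusted p = 0.077). RELB was called lower without knockdown replicate 1 (log2 fold change -0.51, edgeR adjusted p = 0.0227).

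NFKB1 encodes the precursor of the canonical pathway's DNA-binding subunit, which is itself also an inhibitor. It lies on chromosome 4 (ENSG00000109320, positions 102501331 to 102617302, GRCh38) and had 67.3 and 55.5 CPM in the knockdown and 75.5 and 74.8 CPM in the controls. Both knockdown libraries lay below the controls (log2 fold change -0.29, SE 0.125), but the difference did not pass the test over all genes (edgeR adjusted p = 0.108). Without knockdown replicate 1 NFKB1 was called lower (log2 fold change -0.46, edgeR adjusted p = 0.00741). RELA, which encodes the main activating subunit, had 118 and 125 CPM in the knockdown and 125 and 113 CPM in the controls (log2 fold change 0.03, edgeR adjusted p = 0.88). REL, another activating subunit, had 60.8 and 39.2 CPM in the knockdown and 39.0 and 41.9 CPM in the controls, its difference resting on knockdown replicate 1 (log2 fold change 0.31, edgeR adjusted p = 0.238). Without knockdown replicate 1 the log2 fold change of REL was -0.07, and without knockdown replicate 2 REL was called higher (log2 fold change 0.58, edgeR adjusted p = 0.00113). REL shares 43.3% of its exon bases with a gene on the same strand, so its count is uncertain.

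The NFKB1 promoter is shown because it holds the 10 bases GGGAATTTCC, which CXCL1 and CXCL2 also hold and NFKBIA holds on the opposite strand. It is chr4:102501109-102501408 on the plus strand, the first of the gene's 2 windows, with the match at -49. NFKB2 holds the consensus in 2 of its 3 windows.
NFKB1: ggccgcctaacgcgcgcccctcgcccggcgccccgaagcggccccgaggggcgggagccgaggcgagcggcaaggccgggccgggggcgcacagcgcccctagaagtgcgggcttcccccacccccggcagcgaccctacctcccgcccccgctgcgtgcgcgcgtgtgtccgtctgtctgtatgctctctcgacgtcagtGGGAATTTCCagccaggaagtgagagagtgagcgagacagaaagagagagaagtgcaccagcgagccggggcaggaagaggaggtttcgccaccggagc

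The ratio of feedback gene to subunit gene within a library was taken after the values were seen and is given as a description. Per length, NFKBIA was 2.33 and 3.31 times NFKB1 in the knockdown libraries and 1.54 and 1.52 times in the controls. TNFAIP3 was 1.08 and 1.31 times NFKB1 in the knockdown and 0.394 and 0.499 times in the controls. These ratios use summed exon lengths, and with canonical transcript lengths TNFAIP3 averaged below NFKB1 in the knockdown. BIRC3 was 0.512 and 0.736 times NFKB1 in the knockdown and 0.235 and 0.272 times in the controls. For each of these 3 ratios both knockdown libraries lay above both controls. That order was fixed by the levels already given, with each feedback gene above both controls and NFKB1 below both, so it adds no support. With 2 libraries against 2, an exact permutation test cannot give a two-sided p below 0.333.

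**Figure D2:**
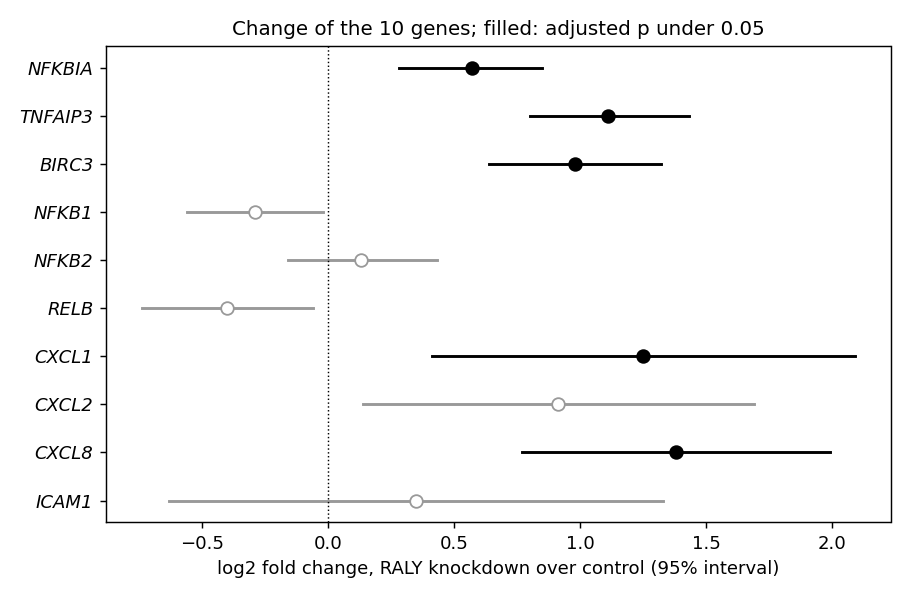
Log2 fold change, RALY knockdown over control, of the 10 genes with its 95% interval (unadjusted); filled points were called at an adjusted p under 0.05. The 5 called genes lie between 0.57 and 1.38, and NFKB1 and RELB lie at -0.29 and -0.40 without a call.

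CXCL8, CXCL1 and CXCL2 encode chemokines that act on neutrophils through the receptors CXCR1 and CXCR2. CXCL8, which encodes interleukin 8, lies on chromosome 4 (ENSG00000169429, positions 73740541 to 73743716, GRCh38). It had 326 and 447 reads in the knockdown libraries and 87 and 217 in the controls, or 20.3 and 30.1 CPM in the knockdown and 6.59 and 12.6 CPM in the controls. The groups did not overlap, although the 2 controls differed 1.90-fold, more than all but 0.365% of 13964 genes averaging 5 CPM or more. The log2 fold change was 1.38 (SE 0.282, edgeR adjusted p = 0.00416), the largest of the 10. Without control replicate 1, the library with the lower level, it was 0.97 and was not called (edgeR adjusted p = 0.117).

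CXCL1 (ENSG00000163739, chromosome 4, positions 73869393 to 73871242, GRCh38) was far less abundant, with 57 and 109 reads in the knockdown and 22 and 49 in the controls. Its level was 3.56 and 7.33 CPM in the knockdown and 1.67 and 2.83 CPM in the controls. The 2 knockdown libraries differed 2.06-fold, but the lower of them was still 1.25 times the higher control. The log2 fold change was 1.25 (SE 0.387, edgeR adjusted p = 0.0327). The call was lost without control replicate 1, control replicate 2 or knockdown replicate 2 (log2 fold change 0.90, 1.68 and 0.63; edgeR adjusted p = 0.335, 0.132 and 0.222). It was also lost with the DESeq2 test (adjusted p = 0.0666) and with plain library totals (edgeR adjusted p = 0.0614).

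CXCL2 (ENSG00000081041, chromosome 4, positions 74097040 to 74099196, GRCh38) had 37 and 52 reads in the knockdown and 19 and 28 in the controls. On the CPM scale it had 2.31 and 3.50 in the knockdown and 1.44 and 1.62 in the controls. Both knockdown libraries lay above both controls, yet the difference did not pass the test (log2 fold change 0.91, 95% interval 0.14 to 1.69, edgeR adjusted p = 0.0796). Without knockdown replicate 1 CXCL2 was called higher (log2 fold change 1.16, edgeR adjusted p = 0.0206). CXCL1 and CXCL2 are close copies: 5.33% of the 50-base stretches of the CXCL1 transcript and 10.1% of those of CXCL2 occur in another CXC gene, so some reads may be split between them and CXCL3. CXCL8 shares none. In all 3 chemokine genes replicate 2 was higher than replicate 1 in both groups. Over all 10 genes, replicate 2 was the higher in 8 in the knockdown and in 7 in the controls.

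The chemokine promoters are shown because CXCL1 and CXCL2 carry the same kB match in nearly the same place, while CXCL8 matches only when the first base of the consensus is left free. Capitals mark the kB consensus in CXCL1 and CXCL2, and in CXCL8 the consensus with its first base free, on either strand. CXCL8 is chr4:73740319-73740618 on the plus strand, CXCL1 is chr4:73869143-73869442 on the plus strand and CXCL2 is chr4:74099146-74099445 on the minus strand (RefSeq, GRCh38.p14).
CXCL8: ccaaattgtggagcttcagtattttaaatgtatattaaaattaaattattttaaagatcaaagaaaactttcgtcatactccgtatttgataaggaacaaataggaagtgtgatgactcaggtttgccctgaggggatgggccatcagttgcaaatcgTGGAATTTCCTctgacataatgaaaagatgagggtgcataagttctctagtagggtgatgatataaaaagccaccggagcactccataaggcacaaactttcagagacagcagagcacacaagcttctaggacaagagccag
CXCL1: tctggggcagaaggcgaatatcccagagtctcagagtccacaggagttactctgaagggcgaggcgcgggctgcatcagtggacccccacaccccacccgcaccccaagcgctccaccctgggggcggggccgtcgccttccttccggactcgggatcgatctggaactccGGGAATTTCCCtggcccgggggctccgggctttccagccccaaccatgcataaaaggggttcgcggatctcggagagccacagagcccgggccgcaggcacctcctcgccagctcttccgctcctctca
CXCL2: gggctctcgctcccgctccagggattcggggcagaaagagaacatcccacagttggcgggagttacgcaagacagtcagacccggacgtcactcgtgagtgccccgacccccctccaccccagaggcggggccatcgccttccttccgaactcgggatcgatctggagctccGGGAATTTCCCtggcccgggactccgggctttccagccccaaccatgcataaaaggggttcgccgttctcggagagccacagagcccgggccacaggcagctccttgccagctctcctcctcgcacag

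In CXCL1 and CXCL2 the match GGGAATTTCC begins at -79 and -78, and a match on the opposite strand overlaps it from its second base on. In CXCL8 the match TGGAATTTCC begins at -92, and another on the opposite strand overlaps it from its second base on. Aligned end to end, the CXCL1 and CXCL2 windows are identical at 72.1% of aligned positions, and the CXCL1 and CXCL8 windows at 42.6%.

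The 3 chemokine genes lie in a cluster on chromosome 4. CXCL6, PF4V1, PF4, PPBP and CXCL5, which lie between CXCL8 and CXCL3, had no read in any of the 4 libraries. A count of 0 allows up to 3 counts, or at most 0.227 CPM in a library. CXCL3, the closest paralog of CXCL2, had 3.06 and 5.78 CPM in the knockdown and 2.43 and 3.53 CPM in the controls, and the groups overlapped (log2 fold change 0.55, edgeR adjusted p = 0.279). CXCL3 was called higher without knockdown replicate 1 (log2 fold change 0.92, edgeR adjusted p = 0.0239).

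Next to the cluster lie genes for ligands of the epidermal growth factor receptor. EREG, which encodes epiregulin, had 49.3 and 55.1 CPM in the knockdown and 27.3 and 41.8 CPM in the controls, with no overlap (log2 fold change 0.59, edgeR adjusted p = 0.0298). That call was lost without control replicate 1 (log2 fold change 0.28, edgeR adjusted p = 0.373), with plain library totals (edgeR adjusted p = 0.0715) and against a minimum fold of 1.2 (edgeR adjusted p = 0.0883). AREG, which encodes amphiregulin, had 33.1 and 44.4 CPM in the knockdown and 22.4 and 35.2 CPM in the controls (log2 fold change 0.42, edgeR adjusted p = 0.157), and it was called higher without knockdown replicate 1 (log2 fold change 0.60, edgeR adjusted p = 0.00213). BTC, the betacellulin gene, had 4.87 and 3.23 CPM in the knockdown and 4.55 and 7.58 CPM in the controls (log2 fold change -0.59, edgeR adjusted p = 0.199), and was called lower without knockdown replicate 1 (log2 fold change -0.94, edgeR adjusted p = 0.0208). EPGN had at most 24 reads in a library and was not called (edgeR adjusted p = 0.0735), though it was called higher without knockdown replicate 2 (log2 fold change 1.51, edgeR adjusted p = 0.0472). The receptor genes of the chemokines, CXCR1 and CXCR2, had at most 7 reads in any library and were not tested.

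**Figure D3:**
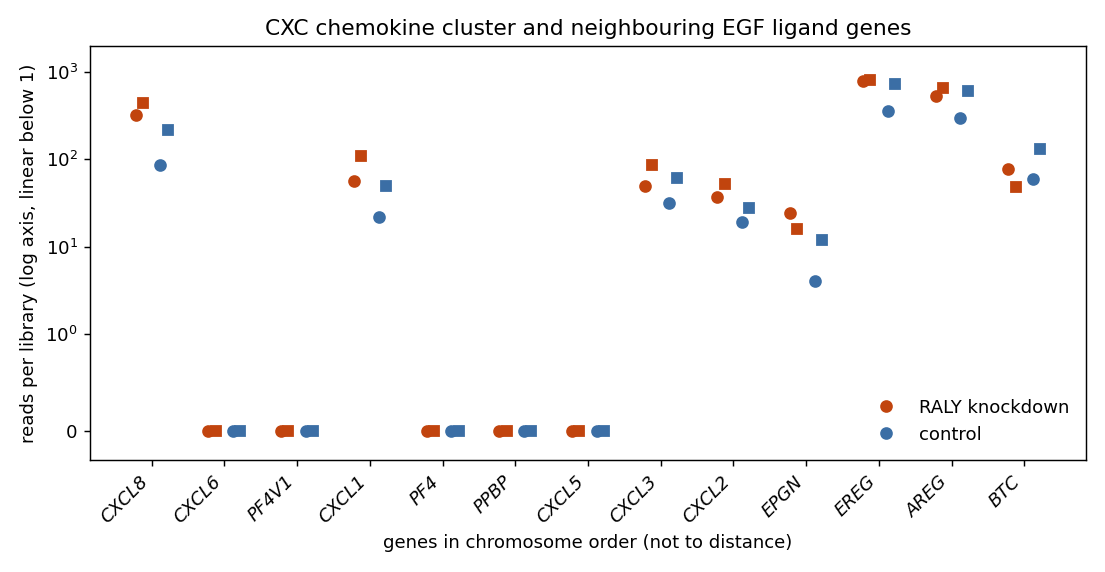
Reads per library (log axis, linear below 1) of the genes of the chromosome 4 chemokine cluster and of the neighbouring EGF ligand genes, in chromosome order; RALY knockdown is left of control for each gene, circles are replicate 1 and squares replicate 2. CXCL8 had 326 and 447 reads in the knockdown and 87 and 217 in the controls, while CXCL6, PF4V1, PF4, PPBP and CXCL5 had none.

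ICAM1 encodes an adhesion protein that leukocyte integrins bind, and it was barely detected. The gene (ENSG00000090339, chromosome 19, positions 10271093 to 10286615, GRCh38) had 15 and 15 reads in the knockdown and 12 and 11 in the controls. Both knockdown libraries, at 0.936 and 1.01 CPM, lay above the controls, at 0.910 and 0.636 CPM, by less than the controls differed from each other. At this depth the log2 fold change was 0.35 with a 95% interval of -0.63 to 1.33 (edgeR adjusted p = 0.62), so a difference of 2-fold upward is within the interval. Antisense genes share 25.4% of its exon bases, and the labels do not say whether strand was used in counting. In its promoter window the kB consensus matched only with the first base free. The matches were TGGAAATTCC at -187 and, overlapping it on the opposite strand, CGGAATTTCC at -186. The integrin genes ITGAL and ITGB2, whose products form a receptor for ICAM1, had at most 17 reads in a library. ICAM3, another integrin ligand, had 6.49 and 7.26 CPM in the knockdown and 12.6 and 9.78 CPM in the controls and was called lower (log2 fold change -0.70, edgeR adjusted p = 0.0463). It shares 75.4% of its exon bases with a gene on the other strand, so its count is uncertain, and it was not called without control replicate 1, control replicate 2 or knockdown replicate 1 (edgeR adjusted p = 0.343, 0.129 and 0.058) or by DESeq2 (adjusted p = 0.0911). ICAM2 and ICAM4 had at most 9 reads in a library. ICAM5, a family member better known from neurons, had 52.5 and 57.2 CPM in the knockdown and 66.3 and 73.2 CPM in the controls (log2 fold change -0.35, edgeR adjusted p = 0.0516), and was called lower without knockdown replicate 2 (edgeR adjusted p = 0.0199).

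Levels between genes were compared per length, as TPM, the share of each library's reads per base of transcript, computed from the counts and the exon length of each gene. In the control libraries the order was NFKB2 at 143 TPM, NFKBIA at 74.3, NFKB1 at 48.6, RELB at 43.0, TNFAIP3 at 21.8, CXCL8 at 17.7, BIRC3 at 12.4, CXCL1 at 7.20, CXCL2 at 4.51 and ICAM1 at 0.918 TPM (means of 2). TNFAIP3, at 18.7 and 24.8 TPM, lay above BIRC3, at 11.2 and 13.5 TPM, in both controls. CXCL8 could not be placed among them, since it ran from 11.8 to 23.7 TPM in the 2 controls. In the knockdown, TNFAIP3 averaged 46.9 TPM and CXCL8 46.1 TPM, above NFKB1 at 39.5 TPM and RELB at 32.4 TPM, though single CXCL8 libraries, at 37.1 and 55.1 TPM, overlapped those of NFKB1, at 43.1 and 35.9 TPM. With canonical transcript lengths the controls gave CXCL8 15.7 TPM and TNFAIP3 15.2 TPM, which swaps these neighbours. In the knockdown the same lengths gave NFKB1 40.4 TPM and TNFAIP3 32.9 TPM, which puts TNFAIP3 below NFKB1.

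**Figure D4:**
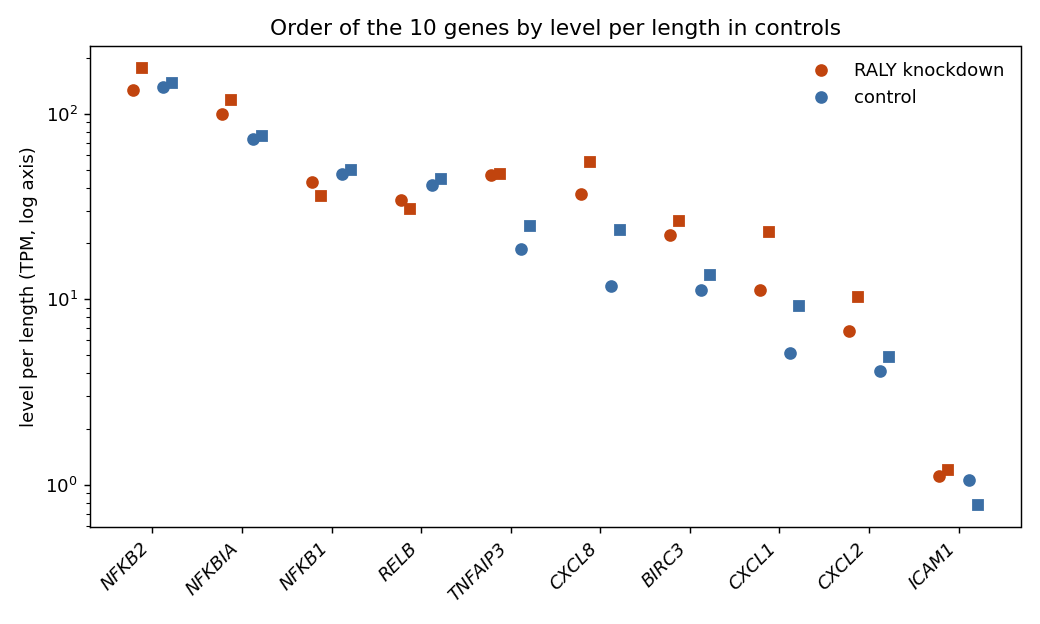
Level per length (TPM, log axis) of the 10 genes in each library, in the order of their mean in controls; RALY knockdown is left of control, circles are replicate 1 and squares replicate 2. TNFAIP3 lies at 46.6 and 47.1 TPM in the knockdown libraries and at 18.7 and 24.8 TPM in the controls, while ICAM1 stays near 1 TPM.

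Across 127 genes of the pathway listed by role, 102 were tested, 19 were called higher and 10 lower. Without the 10 genes above, 14 of 92 (15.2%) were called higher and 10 of 92 (10.9%) lower, near the 12.5% and 13.1% of all genes tested, and their median log2 fold change was 0.15. The count over the 102 genes was 5 higher and 3 lower without control replicate 1, and 7 higher and 2 lower without control replicate 2, in fits that call far fewer genes overall. Without knockdown replicate 1 more were called in both directions, in a fit that also calls more genes in both directions overall.

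Of 7 tested genes, which were those of the IkB family and NKRF, 2 rose (28.6%) and 1 fell (14.3%). Of all genes tested, 12.5% rose and 13.1% fell. NFKBIA and NKRF, a repressor of NF-kB target genes, were higher (NKRF log2 fold change 0.40, edgeR adjusted p = 0.0163), and NFKBIE, which encodes IkB epsilon, was lower. NFKBIE had 15.9 and 18.4 CPM in the knockdown and 27.8 and 30.0 CPM in the controls (log2 fold change -0.75, edgeR adjusted p = 0.00738). Thus NFKBIA and NFKBIE, both inhibitor genes, were called in opposite directions, but neither was called without control replicate 1 or control replicate 2. The log2 fold change of NFKBIE was then -0.84 and -0.71. NFKBIB, which encodes IkB beta, had 38.5 and 33.3 CPM in the knockdown and 38.3 and 39.3 CPM in the controls (log2 fold change -0.11, edgeR adjusted p = 0.604). NKRF shares 21.0% of its exon bases with UBE2A, so its count is uncertain.

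Of 24 kinases and adaptors, 3 rose and 3 fell, or 12.5% in each direction, a share near that of all genes tested. MAP3K14, which encodes NIK, the kinase of the noncanonical pathway, had 1884 and 1627 reads in the knockdown and 572 and 827 in the controls. It averaged 113 ± 5.75 CPM in the knockdown and 45.6 ± 3.17 CPM in the controls (SD, n = 2 each), which is 1.31 higher on the log2 scale (SE 0.117, edgeR adjusted p = 3.46e-05). It remained called in each of the 12 alternatives, including without each library, and shares 12.3% of its exon bases with an antisense gene. TRAF5 and MALT1, an adaptor and a protease of the pathway, rose by 0.49 and 0.48 on the log2 scale. TRAF3, an adaptor in the complex that degrades NIK, averaged 83.3 ± 20.7 CPM in the knockdown and 122 ± 1.72 CPM in the controls (SD, n = 2 each; log2 fold change -0.55, edgeR adjusted p = 0.0167), and was not called without knockdown replicate 2, control replicate 1 or control replicate 2 (edgeR adjusted p = 0.0702, 0.142 and 0.151). TAB1, a partner of the kinase MAP3K7, fell by 0.87 and TRADD, an adaptor of the tumour necrosis factor receptor, fell by 1.14 on the log2 scale.

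Of 18 ubiquitin ligases, deubiquitinases and their partners, 3 rose (16.7%) and 2 fell (11.1%), near the shares of all genes tested. TNFAIP3 and BIRC3 were joined by XIAP, a relative of BIRC3, at 109 ± 20.4 CPM in the knockdown and 79.2 ± 1.39 CPM in the controls (SD, n = 2 each; log2 fold change 0.46, edgeR adjusted p = 0.0236). RBCK1, a subunit of the linear ubiquitin chain ligase, fell by 0.49, and TNIP2, a binding partner of the TNFAIP3 protein, fell by 0.47 on the log2 scale. XIAP was not called without knockdown replicate 1, control replicate 1 or control replicate 2 (edgeR adjusted p = 0.176, 0.233 and 0.188).

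Of 19 receptors, 2 rose and 2 fell, or 10.5% in each direction, which is again near the share of all genes tested. IL1RAP, the shared coreceptor for interleukin 1 family cytokines, averaged 56.6 ± 14.4 CPM in the knockdown and 24.7 ± 3.47 CPM in the controls (SD, n = 2 each; log2 fold change 1.19, edgeR adjusted p = 0.000771). TNFRSF1A, the main receptor for tumour necrosis factor, fell by 0.38 and IL17RA fell by 0.38 on the log2 scale. TNFRSF10A, a receptor for the ligand TRAIL, rose by 0.36. It shares 16.6% of its exon bases with genes on the other strand, and DESeq2 did not call it (adjusted p = 0.0571). Against a minimum fold of 1.2, none of TNFRSF1A, IL17RA and TNFRSF10A was called (edgeR adjusted p = 0.214, 0.207 and 0.237). The ligand genes were scarce: 4 of 11 were tested. TNF had 2 and 9 reads in the knockdown and 1 and 1 in the controls, and IL1A and IL1B had at most 6 reads in a library. TNFSF12, which encodes TWEAK, was lower (log2 fold change -1.27, edgeR adjusted p = 0.000709), but 32.7% of its exon bases belong also to other genes, so its count is uncertain.

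Of 8 tested chemokine and cytokine genes, 4 rose and 0 fell by the edgeR test, where 0 were lower at an unadjusted p under 0.05 and 0 by DESeq2. The number called higher was 1 without either control in turn and 7 without knockdown replicate 1. Besides CXCL8 and CXCL1, these were CSF1 and CSF2, which encode colony stimulating factors of macrophages and of granulocytes and macrophages. CSF1 had 36.4 and 35.8 CPM in the knockdown and 21.6 and 18.4 CPM in the controls (log2 fold change 0.85, edgeR adjusted p = 0.00238). CSF2 had 24 and 32 reads in the knockdown and 2 and 5 in the controls (log2 fold change 2.95, SE 0.530, edgeR adjusted p = 0.002), and was not called without control replicate 1 or control replicate 2 (edgeR adjusted p = 0.0753 and 0.0629). The other 11 listed genes of this group, IL6, CCL2, CCL20 and CXCL10 among them, had too few reads to be tested.

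Of 18 tested genes of other reported targets, 6 rose (33.3%) and 1 fell (5.56%). Of all genes tested, 12.5% rose and 13.1% fell. The list was chosen with earlier results of these data known, so its shares are a description. NFKBIA, counted above in the IkB family, is among the 6, and ICAM1 is among those not called. GADD45B, a stress-induced growth arrest gene, averaged 60.6 ± 2.25 CPM in the knockdown and 23.1 ± 0.309 CPM in the controls (SD, n = 2 each; log2 fold change 1.39, edgeR adjusted p = 5.16e-05). IRF1, an interferon regulatory factor, averaged 62.6 ± 0.618 CPM in the knockdown and 34.1 ± 0.206 CPM in the controls (SD, n = 2 each; log2 fold change 0.88, edgeR adjusted p = 0.000523), and shares 22.1% of its exon bases with antisense genes. TNFAIP2 rose by 0.64 on the log2 scale. CFLAR, an inhibitor of caspase activation at death receptors, was lower (log2 fold change -0.59, edgeR adjusted p = 0.00854). MAP3K14, TAB1, TNFSF12, GADD45B and IRF1 were called with either control left out. Of the 22 called genes named in these lists, 7 were called without control replicate 1 and 6 without control replicate 2. XIAP, TNFRSF10A and TNFRSF1A were not called without knockdown replicate 1, and without knockdown replicate 2 TRAF3 and IL17RA were not. None of the 22 changed direction in any of the 12 alternatives.

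**Figure D5:**
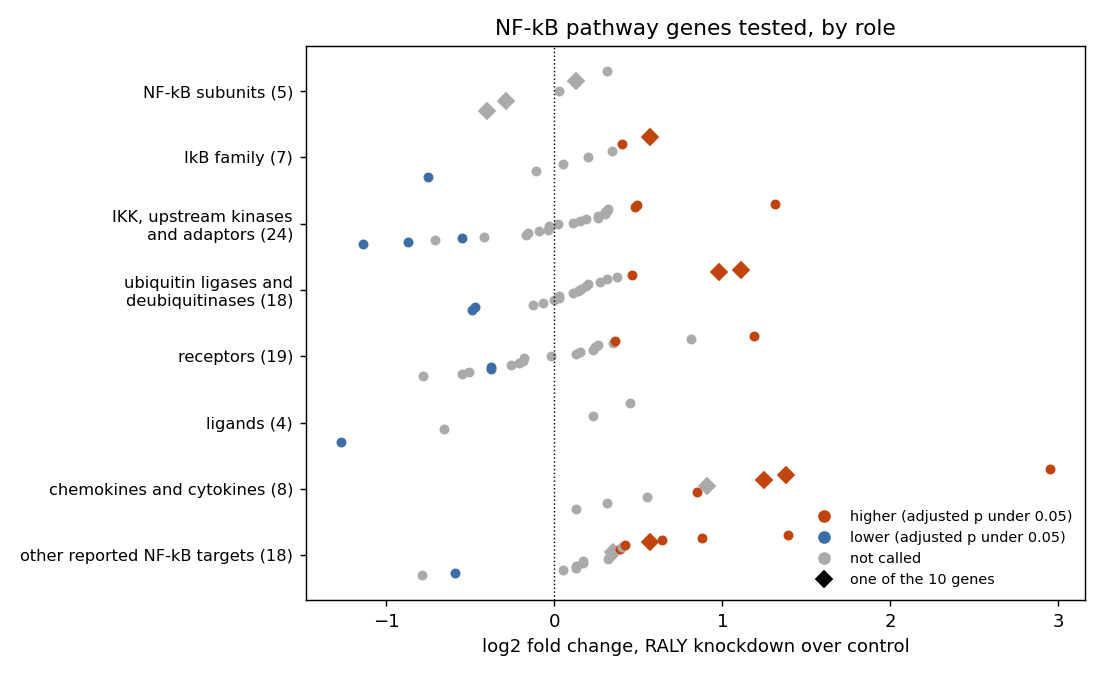
Log2 fold change, RALY knockdown over control, of each tested NF-kB pathway gene by role, with the number tested in parentheses; red was called higher, blue lower and grey not called, and diamonds are among the 10 genes. The subunits hold no called gene, while 4 of 8 chemokines and cytokines were called higher, CXCL8 and CXCL1 of the 10 genes among them. Of all genes tested, 12.5% were called higher.

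TNFAIP3 had the smallest p of the 10 genes, and its profile over the 4 libraries was compared with those of 13963 other genes averaging 5 CPM or more. The nearest by Euclidean distance on centred log2 CPM were CASTOR2, PRKAA2 and SLC4A8, at distances of 0.0383, 0.0638 and 0.0647. CASTOR2, which encodes a component of arginine sensing and has close copies that may share its reads, had 17.1 and 17.8 CPM in the knockdown and 7.05 and 8.97 CPM in the controls. PRKAA2, which encodes a catalytic subunit of the AMP-activated kinase, had 170 and 173 CPM in the knockdown and 68.7 and 83.6 CPM in the controls. SLC4A8, a bicarbonate transporter gene, had 52.5 and 53.8 CPM in the knockdown and 22.8 and 28.1 CPM in the controls. A likeness over 4 libraries says nothing of shared function or control.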

How the data were processed

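Whole-number counts of reads per gene were deposited by the authors, 1 table per library, for 2 RALY knockdown and 2 control libraries. The build GRCh38 and the tools featureCounts, Subread, SAMtools and HISAT2 2.0.4 are named in the submitters' processing notes, with no role or setting. Strand use and treatment of duplicates: not given in the sources. Of 58884 gene IDs, 58472 were found in GENCODE release 44, which gave symbols and canonical transcripts. Coordinates are those of the deposited tables. Counts were fitted with edgeR 4.0.16 (R 4.3.3): filterByExpr, TMM scaling, the robust quasi-likelihood fit on group, and Benjamini-Hochberg adjustment over the 19686 genes tested. DESeq2 1.42.0 served as an alternative. CPM uses TMM-scaled totals of tested genes; TPM uses summed exon lengths. The fit was tested on simulated data. Abundant genes in these tables can level off in count; the mean count of the 10 genes was at most 27.9% of 2 times their exon length. The 10 genes and the lists were chosen with earlier results of these data known. All 10 genes are named. Of each role list, up to 3 called genes in each direction by smallest p are named, or the gene with the smallest p where none was called; the chromosome 4 cluster and close relatives are given by list. Alternatives were other scalings, filters, DESeq2, a replicate block, each library left out, saturation-corrected counts, a minimum fold of 1.2, canonical lengths and a looser motif. The limit given for a count of 0 covers counting error only.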

Additional observations from a re-analysis of the deposited data

How the results depend on the processing

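With 2 libraries a group, calls depended most on the controls. Leaving out 1 library in turn gave between 340 and 2908 genes called higher and between 508 and 3351 lower over all genes, against 2470 and 2578 with all 4. Among the 10 genes it gave between 1 and 6 higher and between 0 and 2 lower, and among the pathway genes between 5 and 27 higher and between 2 and 18 lower. A fit without a control takes its spread from the knockdown pair, which differed more (chi-square over its degrees of freedom 10.2, and 5.42 for the controls), and every such fit takes the lone library to vary like the other group; the cause of the lost calls was not tested. A minimum fold of 1.2 gave 1480 higher (7.52%) and 1604 lower over all genes, and 11 higher and 5 lower among the pathway genes, since it sets a stricter test. TNFAIP3 was called in all 12 alternatives, BIRC3 and CXCL8 in 11, NFKBIA in 10 and CXCL1 in 6. NFKB2, with log2 fold changes between -0.07 and 0.29, and ICAM1, between 0.08 and 0.57, were called in none. ICAM1 was removed by the filter of 1 CPM in 2 libraries. Of 538 recomputed log2 fold changes of named genes, none that was called changed sign, 67 lost and 19 gained a call.

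Replicate numbers in the titles are not stated to mark a shared culture or day. Across 19686 genes, replicate 1 of both groups deviated from the group means with a correlation of 0.219. A replicate block gave 3518 genes higher (17.9%) and 3536 lower, 6 of the 10 genes higher and 2 lower, and 27 pathway genes higher and 15 lower. CXCL2 was then called higher (edgeR adjusted p = 0.0215), and NFKB1 and RELB lower (edgeR adjusted p = 0.048 and 0.029). Counts below about 50 reads, as for ICAM1, CXCL2 and CSF2, limit what could be detected.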
